A study of Mus musculus with 12 samples.

Results

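The sperm-egg fusion factors are the sperm proteins that act when the membranes of the gametes meet and merge. They were taken as the 8 genes Izumo1, Izumo2, Izumo3, Izumo4, Spaca6, Tmem95, Dcst1 and Dcst2, picked by symbol from a table of 21004 genes. Izumo2, Izumo3 and Izumo4 are included as relatives of Izumo1, and the name of the set does not mean that each acts in fusion. All 8 were found, and all 8 had at least 1 FPKM in each of 12 libraries, so none was lost to the filter on low values. FPKM counts sequenced fragments relative to transcript length and to all mapped fragments of the library, so levels of different genes can be set side by side. RNA came from the testis of 8-week-old mice of ICR, an outbred strain, in 4 labelled groups of 3 libraries: control, L.J. at 10 mg/kg, busulfan, and busulfan with L.J. at 10 mg/kg. Germ cells that divide are a known target of busulfan, which alkylates DNA. The labels do not explain L.J., and the series text also names FMT, so what the animals of those groups received is uncertain. No source used here gives the dose of busulfan, the interval from treatment to sampling, or whether each library is a different animal. P-values therefore measure the spread between libraries, which may be technical in part.

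A mammalian sperm can fuse with an egg only after the acrosome, a vesicle over the sperm head, has opened and exposed IZUMO1 on the sperm surface. IZUMO1 then binds its receptor JUNO, encoded by Izumo1r, on the egg membrane. In mice SPACA6, TMEM95, DCST1 and DCST2 are further sperm proteins without which sperm bind the egg but do not fuse with it. These proteins are made in the testis by haploid spermatids, long before they are used.

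Spermatid markers were higher in the libraries labelled with busulfan, a drug known to deplete germ cells, so the group labels may be wrong; this was not tested, and every direction given here depends on them. The summed level of 10 marker genes of round spermatids, the early haploid cells, was 1841 to 1964 FPKM in the libraries labelled busulfan and 1819 to 2078 in those labelled busulfan plus L.J. It was 991 to 1370 in those labelled control and 618 to 1635 in those labelled L.J. The 10 markers of elongating spermatids, the late haploid cells, summed to 38744 to 58315 FPKM in the libraries labelled with busulfan and to 2306 to 27280 in the others. The 17 Sertoli cell markers, from the somatic cells that nurse the germ cells, ran the other way, with 729 to 880 FPKM against 1316 to 6571. No marker of these 3 lists was at 0 in any library. Markers of earlier germ cells did not follow the spermatids. Those of spermatogonia, the first germ cells, summed to 43.6 to 53.3 FPKM in libraries labelled busulfan and 80.8 to 127 in control. By limma 5 of 7 tested were lower in busulfan and none higher. Of 10 markers of meiotic spermatocytes, the cells that precede spermatids, 7 were lower and none higher. Of all genes 51.4% were lower. The libraries labelled L.J. replicates 2 and 3 lay far apart, with round spermatid sums of 1635 and 618 FPKM. Control replicate 3 also held 523 FPKM of 7 epididymal markers, where the other 11 libraries held between 2.88 and 40.0. Most of this sum was 1 gene, Crisp1, at 503 FPKM. Adam7 was 14.4 there, and Lcn5, Lcn8 and Lcn9 were at 0. The next highest Crisp1 value was 33.6, in L.J. replicate 3. In whole tissue fewer cells of a type and less RNA per cell cannot be told apart.

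Sequence before the start of Izumo1 and between Dcst2 and Dcst1 is shown first, because Izumo1 is the member with a complete cAMP response element and the Dcst genes have RefSeq starts on opposite strands with a short stretch between them. The element is the site of CREM, a transcription factor of spermatids. Both stretches come from RefSeq on GRCm38.p6 and are read 5′ to 3′ on the plus strand. Capitals mark the element TGACGTCA. The Izumo1 stretch lies at chr7:45621691-45621810 and ends at the base before the gene's start. That of the Dcst genes lies at chr3:89365254-89365318 and fills the 65 bases between the Dcst1 start at 89365253 and the Dcst2 start at 89365319 that RefSeq's window uses. Other annotated models of Dcst2 start farther upstream, inside Dcst1, so the stretch lies before the start of some Dcst2 transcripts and within others. No exon of GENCODE M21 covers a base of either stretch.
Izumo1: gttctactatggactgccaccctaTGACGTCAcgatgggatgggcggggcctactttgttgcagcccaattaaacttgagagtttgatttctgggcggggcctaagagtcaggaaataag
Dcst2 and Dcst1: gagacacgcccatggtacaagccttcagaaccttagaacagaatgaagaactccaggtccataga

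Windows of 250 bases before to 50 after the start were found for 7 of the 8 members, with none for Izumo4. TGACGTCA, searched on both strands, begins 96 bases before the start of Izumo1 and was in none of the other 6 windows. It was in 1.79% of 32851 such windows of all genes. The shorter core TGACG, which the full element contains on each strand, was also in the Tmem95 window, 208 bases before that window's start, which lies 116 bases inside the gene, and in 20.8% of all windows. GTTGCC, a core of the X-box that RFX factors bind, was in the Spaca6 window alone among the members, 53 bases before that window's start, and in 12.5% of all windows. The Spaca6 window belongs to an internal start at 17830975, 4890 bases inside the gene, and no window of its outermost start was used here. None of these motifs was in the windows of Izumo2, Izumo3, Dcst1 or Dcst2. A match is a description of these letters and no evidence of binding.

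Izumo1 lies on chromosome 7 from 45621811 to 45627242, and Izumo2 on the same chromosome from 44708698 to 44719848, both on the plus strand. Izumo3 lies on chromosome 4 from 92144318 to 92147225 on the minus strand, and Izumo4 on chromosome 10 from 80702015 to 80705382 on the plus strand. Spaca6 lies on chromosome 17 from 17826085 to 17843010 on the plus strand, and Tmem95 on chromosome 11 from 69876054 to 69878171 on the minus strand. Dcst1 lies on chromosome 3 from 89350219 to 89365253 on the minus strand. Its neighbour Dcst2, on the plus strand, is annotated by RefSeq from 89350417 to 89377643, so the longest model of Dcst2 runs across Dcst1. In GENCODE M21 the exons of Dcst1 and Dcst2 share no base. The Spaca6 gene also holds the microRNA genes Mir99b, Mirlet7e and Mir125a on the same strand. An Izumo1 transcript of GENCODE shares 654 exon bases, 21.9% of the exon bases of Izumo1, with Rasip1, which was between 0.54 and 1.60 FPKM in the 12 libraries. Dcst1 shares 1268 exon bases, 24.2% of its own, with the pseudogene Gm10702 on the opposite strand, whose level was not analysed here. No source used here says how the authors handled strand.

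**Figure D1:**
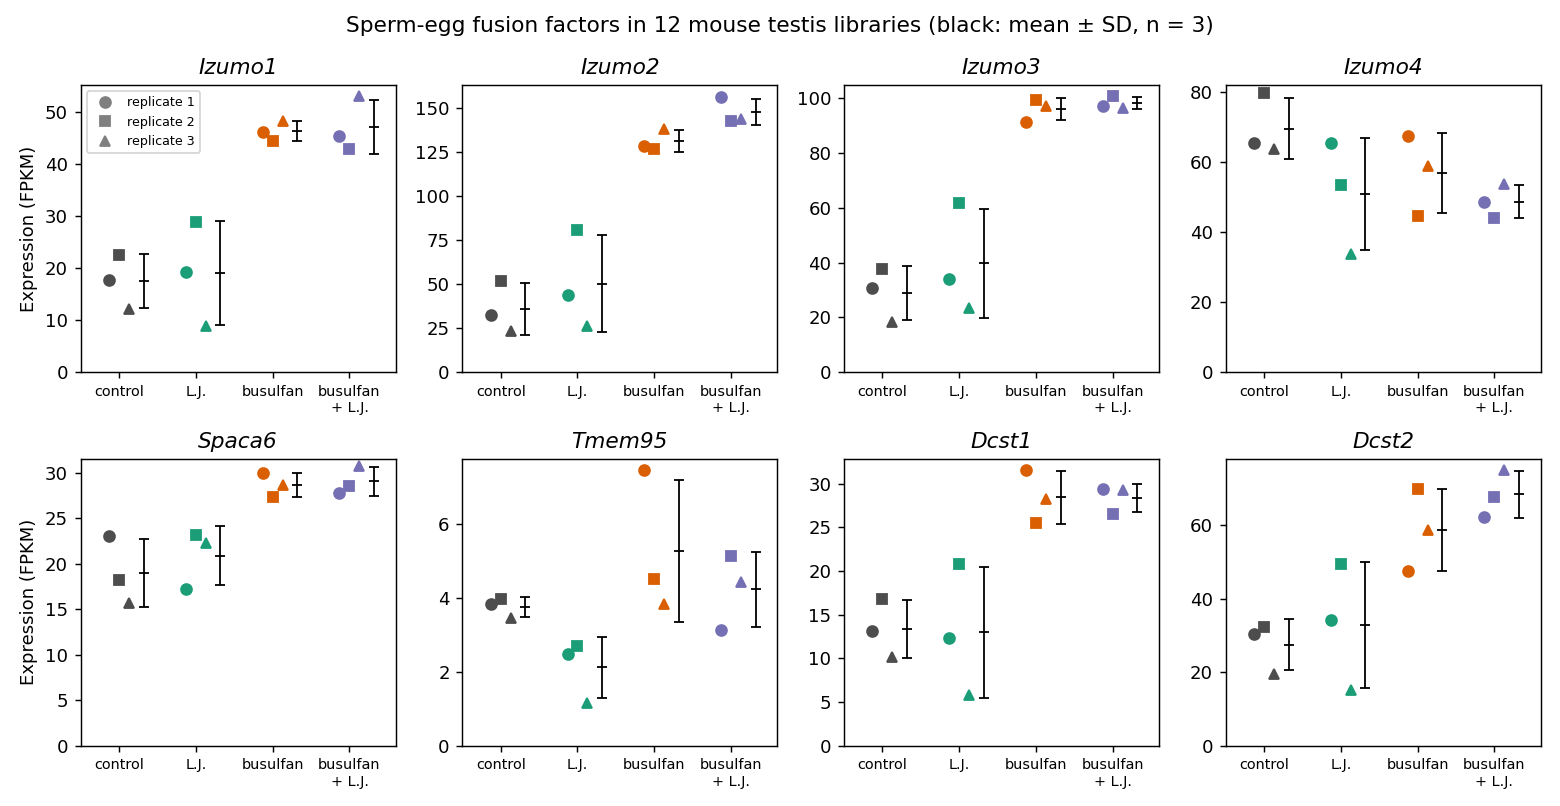
Expression of each of the 8 fusion factors (FPKM, linear axis from 0) in the 12 libraries by labelled group; coloured points are libraries, with shape for the replicate, and black bars are the mean ± SD of 3. Izumo1, Izumo2, Izumo3, Spaca6 and Dcst1 are higher in all 6 libraries labelled with busulfan than in the other 6, while Izumo4 and Tmem95 overlap. The share of all genes that are higher in this way was not counted. Between busulfan and control alone, 16.1% of genes were higher without overlap.

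Izumo1, the sperm ligand of the egg receptor, was higher in every library labelled with busulfan than in every other library. The share of all genes with this pattern, which Izumo2, Izumo3, Spaca6 and Dcst1 also had, was not counted. Between busulfan and control alone, 16.1% of genes were higher without overlap. Izumo1 was 17.6, 22.6 and 12.1 FPKM in control replicates 1 to 3 and 46.2, 44.4 and 48.2 in busulfan replicates 1 to 3. With L.J. alone it was 19.3, 28.8 and 8.89 FPKM, and with busulfan plus L.J. 45.3, 42.9 and 52.9. The libraries with busulfan lay close together, whereas those labelled L.J. spanned a 3.24-fold range from replicate 3 to replicate 2. The means were 17.4 ± 5.21 FPKM (SD, n = 3) in control and 46.3 ± 1.88 in busulfan, and the change in log2(FPKM + 1) was 1.40 ± 0.33 (SE; limma adjusted p = 0.00656).

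Izumo2 and Izumo3, relatives of Izumo1, showed the largest changes among the members. IZUMO3 serves the building of the acrosome in mice, and the role of IZUMO2 is less well known. Izumo2 was 32.3, 51.9 and 23.2 FPKM in the control libraries and 129, 127 and 138 in the busulfan libraries. It was 43.7, 80.8 and 26.4 FPKM with L.J. and 156, 143 and 144 with busulfan plus L.J. Its groups with and without busulfan did not overlap, and its change of 1.92 ± 0.35 log2 (limma adjusted p = 0.00386) was the largest of the 8 members. Izumo3 was 30.9, 37.7 and 18.3 FPKM in control, 34.1, 62.0 and 23.4 with L.J., 91.6, 99.3 and 97.3 with busulfan, and 97.2, 101 and 96.7 with busulfan plus L.J. The 6 libraries with busulfan again formed a narrow band above the others. The change of Izumo3 between busulfan and control was 1.75 ± 0.31 log2 (limma adjusted p = 0.00381).

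Dcst1 and Dcst2 encode membrane proteins of the sperm head that act together in fusion, and both were higher with busulfan. Dcst1 was 13.2, 16.8 and 10.1 FPKM in control, 12.3, 20.8 and 5.78 with L.J., 31.6, 25.6 and 28.2 with busulfan, and 29.4, 26.6 and 29.2 with busulfan plus L.J. Dcst2 was 30.5, 32.3 and 19.5 FPKM in control, 34.3, 49.3 and 15.2 with L.J., 47.5, 69.7 and 58.6 with busulfan, and 62.2, 67.7 and 75.0 with busulfan plus L.J. For Dcst1 no library with busulfan overlapped any other library, while for Dcst2 the value of L.J. replicate 2 lay just above that of busulfan replicate 1. The changes against control were 1.06 ± 0.33 log2 for Dcst1 (limma adjusted p = 0.0181) and 1.08 ± 0.35 for Dcst2 (limma adjusted p = 0.0189). Both calls rest on few libraries. Leaving out control replicate 3 moved limma's adjusted p of Dcst1 to 0.0712, and leaving out busulfan replicate 1 moved it to 0.0515. For Dcst2 it was 0.0781 without control replicate 3, 0.0678 without busulfan replicate 2 and 0.0503 without busulfan replicate 3. Dcst2 was the more abundant of the pair in each library, by 0.59 to 1.48 on the log2 scale of the FPKM ratio. The mean ratio was 1.03 in control and in busulfan, 1.37 with L.J. and 1.26 with busulfan plus L.J.

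Spaca6, a partner of IZUMO1 in fusion, rose less than Izumo1, Izumo2, Izumo3, Dcst1 and Dcst2, and its level in L.J. replicate 3, the library poorest in round spermatid markers, lay between those of the other L.J. libraries. It was 23.1, 18.2 and 15.7 FPKM in control and 30.0, 27.4 and 28.7 with busulfan. With L.J. it was 17.2, 23.2 and 22.3 FPKM, and with busulfan plus L.J. 27.8, 28.6 and 30.8. All 6 libraries with busulfan were above the other 6, but L.J. replicates 2 and 3 differed by only 1.04-fold, where Izumo1 differed by 3.24-fold. The change between busulfan and control was 0.59 ± 0.16 log2 (limma adjusted p = 0.0102). The Sertoli marker sum of L.J. replicate 3 was 6571 FPKM and the highest of the 12 libraries; its part in the Spaca6 level was not tested.

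Tmem95, a membrane protein of the acrosome that fusion in mice also needs, was the least abundant member in all 12 libraries. It was 3.84, 3.97 and 3.46 FPKM in control, 2.49, 2.70 and 1.17 with L.J., 7.46, 4.52 and 3.84 with busulfan, and 3.13, 5.14 and 4.43 with busulfan plus L.J. Busulfan replicate 3 equalled control replicate 1, so these groups overlapped. The change of 0.36 ± 0.26 log2 did not pass (limma adjusted p = 0.240), with a 95% interval of -0.21 to 0.93. At levels this low log2(FPKM + 1) understates a change of the FPKM ratio.

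Izumo4, the family member that lacks a membrane anchor, did not follow the others. It was 65.3, 79.7 and 63.6 FPKM in control, 65.3, 53.4 and 33.8 with L.J., 67.3, 44.5 and 58.7 with busulfan, and 48.4, 44.0 and 53.6 with busulfan plus L.J. The busulfan and control libraries overlapped, and the highest of all was control replicate 2. The change between them was -0.30 ± 0.23 log2 (limma adjusted p = 0.267; 95% interval -0.80 to 0.21), but 0.32 with library medians set equal and 1.20 with Sertoli markers set equal, so its sign depends on the scaling.

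Counted together, 6 of the 8 members were higher and none lower in the libraries labelled busulfan than in control, and the groups of those 6 did not overlap. Groups did not overlap, with busulfan higher, for 16.1% of all genes. In the same fit 12.4% of 14675 genes were higher and 51.4% lower, and 63.7% passed in either direction. The median change of the 8 members was 1.07 log2, and that of all genes -0.51. Without L.J. replicate 2, or without L.J. replicate 3, the count was also 6. Without control replicate 3, the library with the highest sum of epididymal markers, it was 4. After quantile normalization, median scaling or scaling to Sertoli markers it was 7, with Tmem95 added (limma adjusted p = 0.0252, 0.0345 and 0.0120). These scalings moved the median of all genes from -0.51 to -0.157, 0.0095 and 0.764 log2. They gave 16.7%, 21.1% and 26.7% of genes higher and 18.8%, 13.5% and 0.273% lower. Of the round spermatid markers 8 of 10 were higher and none lower, of the elongating spermatid markers 10 of 10 were higher, and of the Sertoli markers 17 of 17 were lower.

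**Figure D2:**
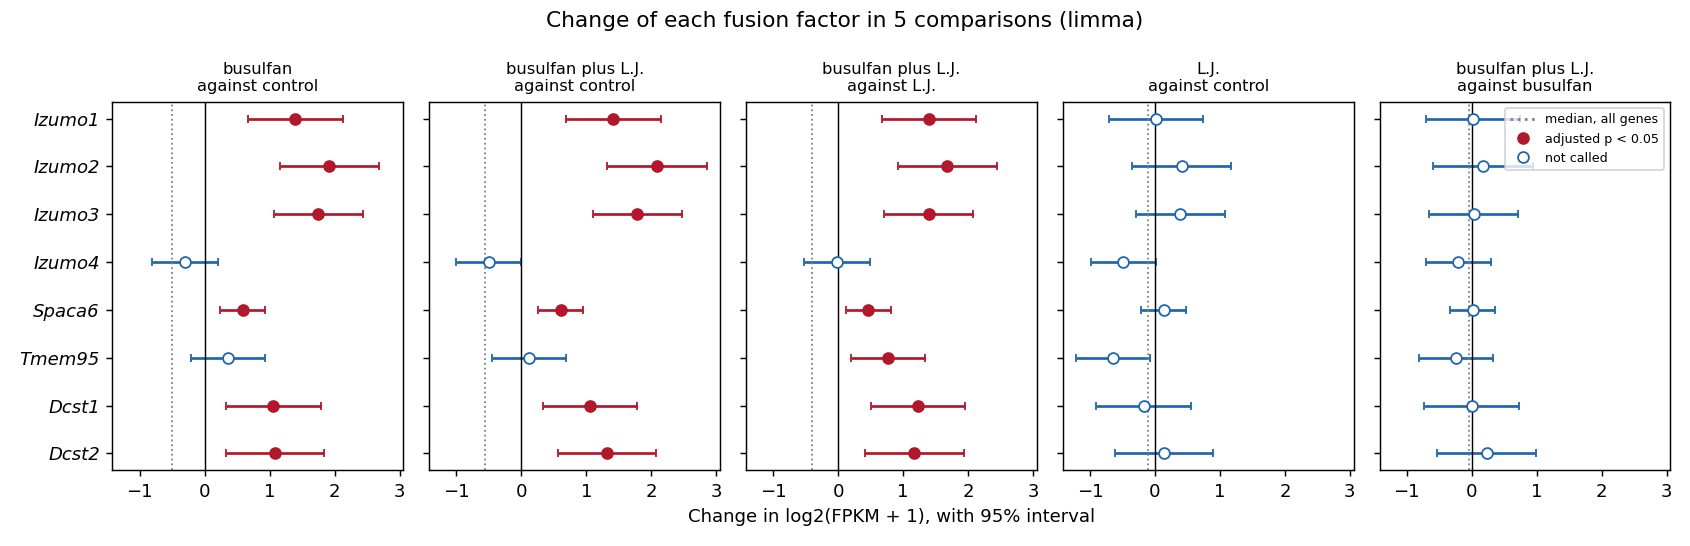
Change in log2(FPKM + 1) of each member with its 95% interval in 5 comparisons; filled red points passed an adjusted p of 0.05 by limma, open blue points did not, and the dotted line is the median of all genes. The 3 panels that set a busulfan group against one without it hold 6, 6 and 7 red points, and the panels of L.J. against control and of busulfan plus L.J. against busulfan hold none.

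Scaling each library to the round spermatid markers other than Acr shows how each fusion factor stood relative to these cells' other transcripts. Izumo2 and Izumo3 remained higher in busulfan than in control, by 0.78 (limma adjusted p = 0.00534) and 0.61 log2 (limma adjusted p = 0.0168). Izumo4 was lower, by -1.45 log2 (limma adjusted p = 0.00414). Izumo1 had a change of 0.28 on this scale, Dcst1 of -0.05 and Dcst2 of -0.05, with adjusted p of 0.194, 0.832 and 0.835 by limma. Spaca6 and Tmem95 had changes of -0.53 and -0.59 log2 (limma adjusted p = 0.172 and 0.0989). Thus 3 members passed, 2 higher and 1 lower, in place of 6. On this scale the median of all genes was -1.45 log2, with 3.89% of genes higher and 79.4% lower, so the change of Izumo4 was close to that median and the other 7 members lay above it.

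**Figure D3:**
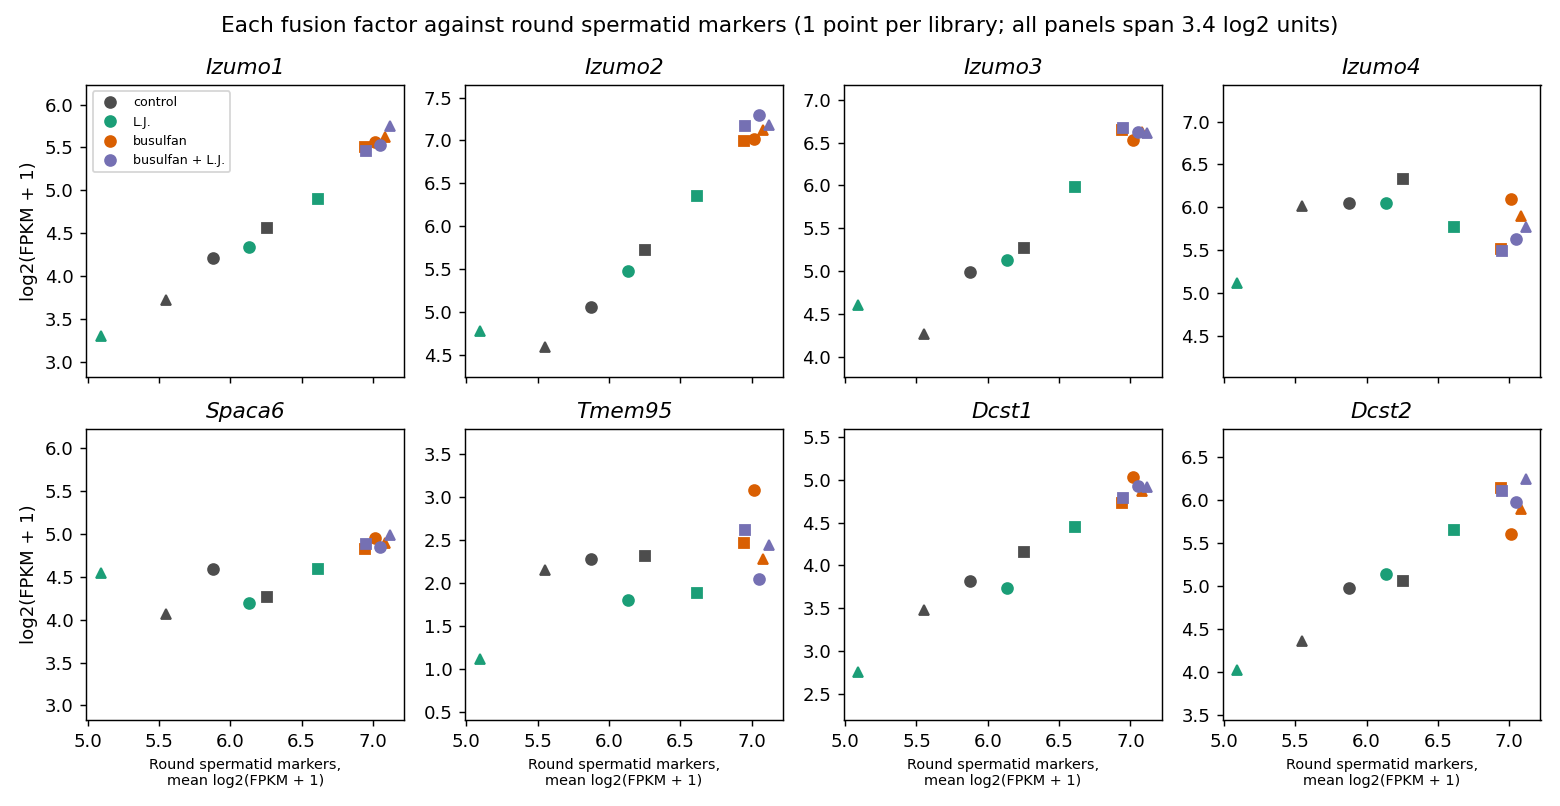
Level of each member, as log2(FPKM + 1), against the mean log2(FPKM + 1) of 10 round spermatid markers, 1 point per library, with colour for the group and shape for the replicate. Izumo1 rises along a narrow band (Pearson r 0.995 over 12 libraries), Izumo4 shows no trend (0.081), and in the Spaca6 panel L.J. replicate 3, the point farthest to the left, is not the lowest.

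Across the 12 libraries Izumo1 and Dcst1 had the highest Pearson r with the round spermatid markers, 0.995 and 0.988. For Izumo2 and Izumo3 r was 0.985 and 0.981 with the elongating spermatid markers and 0.970 and 0.961 with the round ones. Spearman's rho for Izumo2 had the other order, 0.937 and 0.944, and for Izumo3 it was 0.860 and 0.804. For Spaca6 and Tmem95 the values with round spermatid markers were 0.750 and 0.680. Izumo4 stood apart, with 0.081 for round spermatids and 0.669 for 10 markers of meiotic spermatocytes, the cells that precede spermatids. These values are descriptions only. All genes of a library share its cell mix and scaling, and the marker sums above differed between libraries.

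The same contrast between members appears in ratios taken within a library, which dividing a library by a single factor cannot alter. On the log2 scale of the FPKM ratio, Izumo4 stood at 1.89, 1.82 and 2.39 above Izumo1 in control and at 0.54, 0.002 and 0.28 in busulfan. Every control library was thus above every busulfan library, and the means differed by -1.76 (exact permutation test, two-sided, p = 0.1, the smallest that 3 against 3 libraries allow). Izumo2 stood at 0.88 to 1.20 over Izumo1 in control and at 1.48 to 1.52 in busulfan, which also did not overlap (exact p = 0.1). Spaca6 stood at -0.31 to 0.39 in control and -0.75 to -0.62 in busulfan, and at 1.33 in L.J. replicate 3. Tmem95 stood at -2.51 to -1.81 in control and -3.65 to -2.63 in busulfan. Izumo3 stood at 0.59 to 0.81 in control and 0.99 to 1.16 in busulfan (exact p = 0.1). Dcst1 stood at -0.42 to -0.26 and at -0.80 to -0.55 (exact p = 0.1). Only the ratios of Dcst2 to Izumo1 overlapped between busulfan and control (exact p = 0.2). Between L.J. and control the ratios of Izumo3, Tmem95 and Dcst1 to Izumo1 did not overlap (exact p = 0.1). Those of Izumo2, Izumo4, Spaca6 and Dcst2 to Izumo1 did. Ratios of Dcst2 to Dcst1 did not (exact p = 0.1). The share of all genes whose ratio to Izumo1 did not overlap was not counted. Izumo1 itself rose by 1.40 log2, where the median change of all genes was -0.51 and 51.4% were lower. A lower ratio to Izumo1 is therefore not particular to Izumo4.

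**Figure D4:**
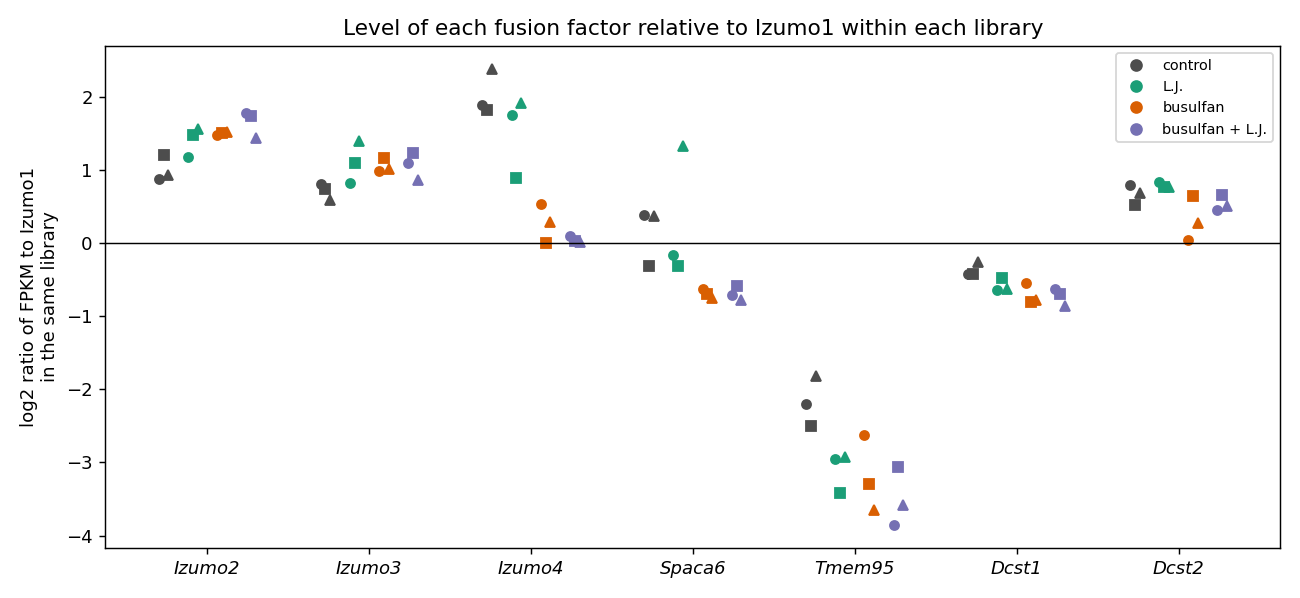
Level of 7 members relative to Izumo1 in the same library (log2 ratio of FPKM), with colour for the group and shape for the replicate; 0 means a level equal to that of Izumo1. Izumo4 lies between 1.82 and 2.39 in control and between 0.002 and 0.54 in busulfan, and L.J. replicate 3 is the highest Spaca6 point at 1.33.

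The order of the members by level changed with these ratios. Izumo4 was the most abundant in 5 of the 6 libraries labelled control or L.J., and Izumo2 in the remaining library of these, L.J. replicate 2, and in all 6 labelled with busulfan. In control the mean levels ran from Izumo4 (69.5 ± 8.83 FPKM; SD, n = 3) over Izumo2 (35.8 ± 14.7), Izumo3 (29.0 ± 9.84), Dcst2 (27.4 ± 6.93), Spaca6 (19.0 ± 3.75), Izumo1 (17.4 ± 5.21) and Dcst1 (13.4 ± 3.36) to Tmem95 (3.76 ± 0.265). There Izumo4 and Tmem95 were clear of their neighbours, and the ranges of each pair of neighbours from Izumo2 to Dcst1 overlapped. In busulfan the order was Izumo2 (131 ± 6.32), Izumo3 (96.1 ± 4.03), Dcst2 (58.6 ± 11.1), Izumo4 (56.8 ± 11.5), Izumo1 (46.3 ± 1.88), Spaca6 (28.7 ± 1.34), Dcst1 (28.4 ± 3.01) and Tmem95 (5.27 ± 1.92). Dcst2, Izumo4 and Izumo1 overlapped there, as did Spaca6 and Dcst1. Together the 8 members held 0.0328% to 0.0676% of the FPKM sum of a library labelled control or L.J. and 0.0871% to 0.092% of one labelled with busulfan.

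Setting busulfan plus L.J. against busulfan asks whether L.J. altered the testis of busulfan-treated mice, and no fusion factor passed in it. By limma 0 of 8 members and 0% of all genes were called, and 0 of 8 members had an unadjusted p under 0.05, as did 0.743% of all genes. The changes ran from -0.24 for Tmem95 to 0.23 for Dcst2. The 95% interval for Izumo1 was -0.71 to 0.75 and that for Spaca6 was -0.33 to 0.37, so changes up to those sizes are not excluded. Both intervals rest on the spread shared by all 4 groups, not on that of the compared groups alone. For Izumo1 the coefficient of variation (SD over mean) was 4.07% in busulfan and 11.2% in busulfan plus L.J. It was 29.9% in control and 52.5% in L.J. A fit of the compared groups alone also called 0 of 8 members by limma. Izumo2 alone had groups that did not overlap, at 127 to 138 FPKM against 143 to 156, where 3.39% of genes were higher without overlap. Its change was 0.17 ± 0.35 log2 (limma adjusted p = 1).

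L.J. alone against control also gave no call, with 0 of 8 members and 0% of all genes by limma. Here 1 member had an unadjusted p under 0.05, beside 4.87% of all genes. That was Tmem95, whose 3 L.J. libraries lay below all 3 control libraries, at 1.17 to 2.70 against 3.46 to 3.97 FPKM, as did those of 7.97% of genes. Its change was -0.65 ± 0.26 log2 (limma adjusted p = 0.843). The coefficient of variation was larger in L.J. than in control for 7 of the 8 members, such as Dcst1 (58.1% against 25.1%) and Izumo1 (52.5% against 29.9%). For Spaca6 it was 15.3% in L.J. and 19.8% in control. The share of all genes with a larger coefficient in L.J. was not counted, so this is not a result particular to the members. The 95% interval for Izumo1, from the spread shared by all 4 groups, was -0.71 to 0.75.

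Set against control, the libraries labelled busulfan plus L.J. gave the same 6 members higher and none lower, beside 13% of all genes higher and 53.5% lower. This comparison shares its control libraries with that of busulfan, and its values stand beside those above without being an independent repeat. The changes were 1.42 for Izumo1, 2.09 for Izumo2, 1.78 for Izumo3, 0.60 for Spaca6, 1.06 for Dcst1 and 1.31 for Dcst2, with limma adjusted p between 0.00207 and 0.0166. Without control replicate 3 the call of Dcst1 was lost (adjusted p = 0.0663 by limma), and 5 members remained. Izumo4 was lower in all 3 of these libraries than in control, as were 63.4% of genes, by -0.50 ± 0.23 log2 (limma adjusted p = 0.0711). Its adjusted p by limma was 0.0079 in a fit of these groups alone, 0.0495 when L.J. replicate 1 was left out and 0.0152 when replicate 3 of that group was. Its change was 0.16 with library medians set equal and 0.94 with Sertoli markers set equal. Tmem95 had a change of 0.12 ± 0.26.

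Against L.J. alone, busulfan plus L.J. had 7 of 8 members higher and none lower, Tmem95 among them, beside 11.7% of all genes higher and 39.8% lower. The changes ran from 0.47 for Spaca6 to 1.68 for Izumo2, and Tmem95 had 0.77 ± 0.26 (limma adjusted p = 0.0314). Izumo4 had -0.02 ± 0.23. These calls lean on the spread shared by all 4 groups: a fit of these groups alone called 0 of 8 members (adjusted p from 0.078 by limma), and leaving out busulfan plus L.J. replicate 3 also left 0, with an adjusted p of 0.0542 by limma for Izumo1, Izumo2 and Izumo3. Without busulfan plus L.J. replicate 2 the count was 4, and without L.J. replicate 3 it was 6, with Tmem95 at an adjusted p of 0.0848 by limma. The interaction, which tests whether the busulfan difference changed with L.J., called 0 of 8 members by limma, with 0 at an unadjusted p under 0.05 beside 1.24% of all genes, and ranged from -0.36 for Izumo3 to 0.41 for Tmem95.

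Of 5 other genes listed for sperm fusion, all were higher in busulfan than in control and none lower, with a median of 1.50 log2. Llcfc1, a sperm protein that mice need for fusion, was the most abundant and rose most. It was 167, 210 and 97.9 FPKM in control and 475, 792 and 701 in busulfan, with no overlap and a change of 2.08 ± 0.45 log2 (limma adjusted p = 0.0051). Eqtn, of the equatorial part of the acrosome, rose by 1.50 log2, 1700029I15Rik by 1.60, 4930451I11Rik by 1.44 and Tmem81 by 1.31. Tmem81 was low throughout, at 0.59 to 5.32 FPKM.

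Genes of the egg side of the interaction were at or near 0 or lower with busulfan. Izumo1r, the egg receptor of IZUMO1, was between 0 and 0.14 FPKM in the 12 libraries and did not pass the filter. Cd9 and Cd81, tetraspanins of the egg membrane that many somatic cells also carry, were lower in busulfan than in control, by -0.96 and -1.82 log2 (limma adjusted p = 0.0211 and 0.00559). Cd81 was 116, 72.6 and 121 FPKM in control, 33.1, 24.2 and 26.9 in busulfan, and 150 in L.J. replicate 3, the library highest in Sertoli markers. Whether the cell mix accounts for this was not tested. Of 6 oocyte markers, Gdf9 alone passed the filter, at 0.21 to 2.62 FPKM, with overlap between busulfan and control. Zp3 was at most 0.62 FPKM and Zp1, Zp2 and Bmp15 at most 0.09, and Oosp1 was listed at 0 in all 12 libraries.

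Genes for binding and crossing the zona, the coat of the egg, split in the same comparison, with 2 of 6 higher and none lower (median 0.67 log2). Spaca4 rose by 1.26 log2 and Zp3r by 1.05. Acr, the acrosomal protease acrosin, had a change of 0.70 and Adam3 of 0.63 (limma adjusted p = 0.089 and 0.067). Zpbp and Zpbp2, which bind the zona from within the acrosome, had changes of -0.07 and 0.05 (limma adjusted p = 0.819 and 0.852).

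Genes whose profile was most like that of a member were sought by Pearson r over the 12 libraries among 8718 other named genes with a mean of at least 5 FPKM. For Izumo1 they were St8sia3 (0.998), Slc22a14 (0.997) and Ace3 (0.997). For Izumo2 they were Lemd1, Clip4 and Chl1 (all 0.997), and for Izumo3 Prkcq, Ms4a14 and Cpxcr1 (all 0.997). Dcst1 was most like Zp3r (0.995), Fam24b (0.995) and Ftmt (0.993), and Dcst2 most like Fancd2os (0.994), Pde4a (0.993) and Tex38 (0.992). The nearest genes were less close for the members that stood apart. Izumo4 had Mad2l2 (0.978), Stkld1 (0.974) and Actl6a (0.972), Spaca6 had H2al1a (0.965), Amotl1 (0.942) and Pim1 (0.930), and Tmem95 had Zdhhc11 (0.894), Ddx20 (0.893) and Fam208b (0.881). H2al1a is one of several near-identical histone genes, so its single values are uncertain.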

How the data were processed

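RNA of 12 testis libraries was measured by sequencing. The authors deposited 1 FPKM value for each gene in each library, rounded to 2 decimals. The submitters' processing notes name Bowtie 0.12.2 and the build mm10. No source used here names the quantifier, its annotation, strand setting, filters or any scaling across libraries. The low values carry too few digits to recover reads, so the depth is unknown and no counting error is given.

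Genes with at least 1 FPKM in at least 3 libraries were kept, 14675 of 21004. A linear model of log2(FPKM + 1) with all 4 groups was fitted with limma's trend option (version 3.58.1, R 4.3.3), and p-values were adjusted over all genes kept by the Benjamini-Hochberg method at 0.05. The fit was also run on simulated data with the same spread in all groups. That run does not test the fit under unequal spreads such as those seen here. Groups were compared pairwise, with an interaction. Within-library ratios were compared by exact permutation in scipy 1.17.1. The sequences are RefSeq's, matched by gene identifier. All 8 members, the lists named in the text and the 3 genes most like each member are reported, leaving out symbols of the forms Gm and Rik from the last. Members and lists were chosen with earlier results of these data known. Alternatives were a replicate block, other pseudocounts, filters, scalings and moderation, fits of the compared groups, and libraries left out. Figures were drawn with matplotlib 3.10.9.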

Additional observations from a re-analysis of the deposited data

How the results depend on the processing

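The labels do not say whether replicate numbers pair the samples. Deviations of same-numbered libraries correlated between -0.175 and 0.759, over 0.1 in 5 of 18 pairs. The highest were 0.759 for control and L.J. replicates 2 and 0.62 for control and L.J. replicates 3. Whether these libraries share a batch is unknown. With a replicate block the counts of members called stayed at 6, 6 and 7 for busulfan against control, for the combination against control and for the combination against L.J., and at 0 in the other comparisons. Scaling to round spermatid markers lowered them to 3, 4 and 2. On that scale the signs turned in these comparisons for Spaca6 (-0.53), Tmem95 (-0.59, not called on either scale), Dcst1 (-0.0490) and Dcst2 (-0.0502) in busulfan against control, for Spaca6 (-0.52), Tmem95 (-0.815, adjusted p = 0.031 by limma) and Dcst1 (-0.0557) in busulfan plus L.J. against control, and for Spaca6 (-0.63) and Tmem95 (-0.0501) in busulfan plus L.J. against L.J.; the scaling divides each library by a level that itself rose. A fit of the compared groups alone called 0 members in busulfan plus L.J. against L.J.; fewer samples enter it, and the interaction has no such fit. With 1 library left out at a time the counts ran from 4 to 6, 5 to 7 and 0 to 7 in the same order, and were 0 for busulfan plus L.J. against busulfan, L.J. against control and the interaction. A minimum of 5 FPKM left Tmem95 untested. Unknown depth limits what can be said of Tmem95, the lowest member.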

Other observations

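Of 4 transcription regulators of spermiogenesis, Sox30 alone was higher in busulfan than in control. It was 64.5, 85.1 and 51.0 FPKM in control and 163, 222 and 206 in busulfan, a change of 1.56 ± 0.36 log2 (limma adjusted p = 0.00595). Crem, whose product binds the element found before Izumo1, was 56.2, 65.4 and 55.3 FPKM in control and 84.9, 79.3 and 79.5 in busulfan. These groups did not overlap, but its change of 0.46 ± 0.23 log2 did not pass (limma adjusted p = 0.0923). Rfx2 and Tbpl1 had changes of 0.12 and -0.27 log2 (limma adjusted p = 0.691 and 0.235).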
